A study of Homo sapiens with 10 samples.

Results

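Among untreated HCT-116 cells, a minority carried many CDKN1A transcripts although no drug had been given, and these cells were set against untreated cells in which no CDKN1A transcript was counted. The cells were chosen from the raw counts of unique molecular identifiers (UMIs, each marking 1 captured transcript) of deeply read barcodes, where a barcode stands for 1 droplet and so usually for 1 cell. A deep barcode held 20000 to under 150000 UMIs, fewer than 12000 detected genes and under 8% of its UMIs on mitochondrial genes. Barcodes with at least 6 CDKN1A UMIs were called CDKN1A-high and those with 0 were called CDKN1A-none. This gave 421 CDKN1A-high barcodes (246 in untreated library 1 and 175 in untreated library 2) and 2456 CDKN1A-none barcodes (1613 and 843), out of 5244 deep and 7229 untreated barcodes in all. The remaining 2367 deep barcodes had 1 to 5 CDKN1A UMIs.

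HCT-116 is an established human colorectal carcinoma line, labelled WT in every library used here. The study treated it with doxorubicin (DOX), an anthracycline that traps topoisomerase II and breaks DNA, and profiled single cells by droplet scRNA-Seq. There were 2 libraries of untreated cells and 2 of DOX cells, which had been exposed to 200 nM DOX during 24 h and harvested after 6 d of recovery, with 23229 barcodes in total. Neither the labels nor the methods say whether the replicate libraries came from separate cultures, so the p-values below speak for these libraries only. The edgeR test used below shares its estimate of spread across genes. A standard error (SE) or p-value therefore need not reflect a gene's own spread between the libraries.

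CDKN1A encodes p21, an inhibitor of cyclin-dependent kinases that holds cells in G1 or G2 and that is a direct target of the transcription factor p53. p53 is kept low in resting conditions by MDM2, a ubiquitin ligase that is itself a p53 target, and rises when DNA is damaged or replication is disturbed. In cultures of cycling cells p53 and p21 are known to come on in single cells without added damage, and such cells may pause or leave the cycle.

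The 2 untreated libraries held 4701 and 2528 barcodes with 317489299 and 209547139 UMIs. They shared 5 barcode sequences, and any pair of the 4 libraries shared 5 to 24. The labelled cell type was checked against its markers: all 8 epithelial genes of the list were detected in both groups, with a summed level of 4651 and 4137 CPM (UMIs of a gene for every 1000000 UMIs of the group) in CDKN1A-high barcodes of the 2 libraries, against 3920 and 3600 CPM in CDKN1A-none barcodes. The lists for fibroblast, immune, endothelial and erythroid cells each summed to between 0.180 and 2.94 CPM in every group of the untreated libraries. PTPRC, CD3E and CD14, which define immune cells, were at 0 in CDKN1A-high barcodes of both libraries. The larger CDKN1A-none sums held all immune genes of the list, with CD3E at 0.00912 and 0.0152 CPM, levels that the smaller CDKN1A-high sums could miss. VIL1, the lowest epithelial gene, had 0.902 and 0.908 CPM in CDKN1A-high barcodes, below COL1A1 of the fibroblast list at 2.53 and 2.66 CPM. No gene of the fibroblast, immune, endothelial and erythroid lists passed the test between the groups.

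CDKN1A-high barcodes made up 7.41% of the deep barcodes of untreated library 1 (95% exact binomial interval 6.54 to 8.35%) and 9.10% of those of library 2 (7.85 to 10.5%). These intervals cover counting error only. In the DOX libraries the same rule gave 45.8% and 39.1%. CDKN1A-none barcodes were 48.6% and 43.8% of the deep untreated barcodes and 10.2% and 12.7% of the deep DOX barcodes. At a lower limit of 4 CDKN1A UMIs the untreated shares were 12.5% and 16.4%, and at 10 UMIs they were 3.86% and 5.30%. These shares follow from the rule and were not tested.

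CDKN1A itself, which chose the barcodes, is given as a description. CDKN1A-high barcodes had a median of 10 and 11 CDKN1A UMIs in the 2 libraries, a maximum of 133 and 86, and a summed level of 171.3 and 167.2 CPM. They held 57.7% and 60.5% of all CDKN1A UMIs of the deep untreated barcodes. The variance of CDKN1A UMIs over deep barcodes was 19.0 and 15.1 times its mean, so a small share of barcodes carried most of the transcript. The level was higher still in the CDKN1A-high barcodes of the DOX libraries, at 490.7 and 412.6 CPM.

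Because raw UMIs set the limit, deeper barcodes passed it more easily. The median depth was 86304 and 92848 UMIs in CDKN1A-high barcodes, against 65015 and 71988 UMIs in CDKN1A-none barcodes. The share of CDKN1A-high barcodes in library 1 was 2.68% between 20000 and 40000 UMIs and 14.4% from 100000 UMIs up. In library 2 these shares were 10.8% (4 of 37 barcodes) and 14.1%, with a lowest value of 3.66% between 40000 and 60000 UMIs. The median mitochondrial share was 5.38% and 5.10% in CDKN1A-high barcodes, against 5.17% and 4.90% in CDKN1A-none barcodes. Results are therefore also given for depth-matched groups, in which each library held as many CDKN1A-none as CDKN1A-high barcodes in each range of 10000 UMIs.

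**Figure D1:**
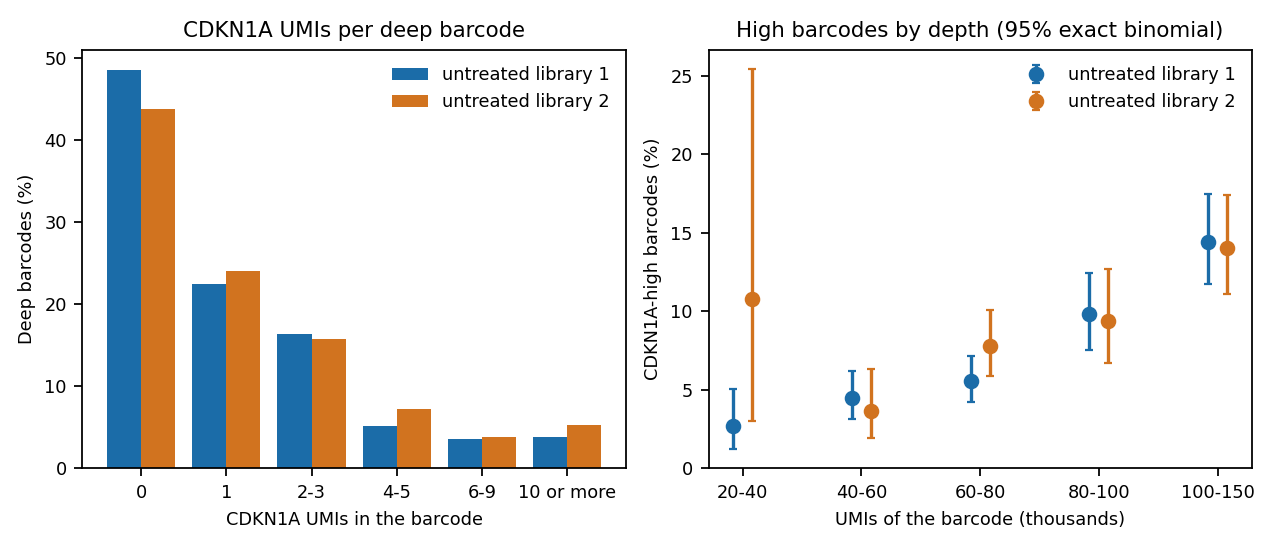
Left, share of deep barcodes (%) by their CDKN1A UMIs in the 2 untreated libraries; right, share of deep barcodes (%) that were CDKN1A-high by total UMIs of the barcode (labelled in units of 1000), points with 95% exact binomial intervals. Barcodes with 0 CDKN1A UMIs were 48.6% and 43.8% of the deep barcodes, and the CDKN1A-high share was 14.4% and 14.1% among the deepest.

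To compare the groups, raw UMIs were summed over the barcodes of each group in each library, and edgeR's quasi-likelihood test was run on the 4 sums over 17257 genes, CDKN1A left out, with a block for each library. At a Benjamini-Hochberg adjusted p under 0.05, 2297 genes (13.3%) were higher and 2241 (13.0%) were lower in CDKN1A-high barcodes. The median log2 fold change over all genes tested was 0.01. With DESeq2 on the same sums 620 genes (3.59%) were higher and 828 (4.80%) lower. Without the block 642 genes (3.72%) were higher and 157 (0.910%) lower. Leaving out library 1 gave 384 higher and 128 lower, and leaving out library 2 gave 519 and 169, in fits that took the spread from the DOX libraries. The counts over all genes moved with each of these settings, so the results below turn on gene groups and on the values in each library. Since far fewer genes of any kind were called with 1 library left out, a lower list count there is not by itself a result about that list.

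p53 targets rose together. Of 57 known p53 targets written as a list, 55 passed the filter on low counts, 51 of them were higher and 2 lower in CDKN1A-high barcodes, with a median log2 fold change of 0.70 over the 55. SPATA18 and TRIM22 were below the filter, with 4 and 7 UMIs and 6 and 3 UMIs in the CDKN1A-high barcodes of the 2 libraries, against 0 and 1 and 4 and 1 in CDKN1A-none barcodes. The list was written with earlier results of these libraries known. In depth-matched groups 49 of 55 were higher and 2 lower (median 0.71), and without library 1 or library 2 the number higher was 38 and 41 of 57.

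Among the genes that act back on p53, all 6 members rose. MDM2 had 150.0 and 142.8 CPM in CDKN1A-high barcodes, against 42.4 and 44.9 CPM in CDKN1A-none barcodes, a log2 fold change of 1.77 ± 0.04 (SE of the fit, n = 2 libraries, adjusted p = 8.14e-15). Both CDKN1A-high values lay above both CDKN1A-none values by more than the libraries differed. With 2 libraries a group, 24.3% of the genes tested did not overlap in this direction and 24.9% in the other. PHLDA3, an inhibitor of Akt signalling, rose by 1.67 ± 0.06 on the log2 scale. ZMAT3, an RNA-binding tumour suppressor, rose by 1.19 ± 0.06, and PPM1D, the WIP1 phosphatase that removes activating phosphates from p53, by 0.92 ± 0.05. TP53INP1, which promotes p53 phosphorylation and which was named after its value was seen, rose by 2.84 ± 0.18, to 8.03 and 5.75 CPM in CDKN1A-high barcodes, against 0.931 and 1.07 CPM in CDKN1A-none barcodes.

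All 7 growth arrest and stress factors of the list rose. GDF15, a secreted cytokine of the TGF-beta family, had 240.5 and 177.9 CPM in CDKN1A-high barcodes, against 11.9 and 9.27 CPM in CDKN1A-none barcodes. Its log2 fold change of 4.33 ± 0.04 (adjusted p = 2.83e-20) was the largest of the p53 target list. BTG2, an antiproliferative factor that speeds mRNA decay, had 28.1 and 27.5 CPM, against 3.70 and 4.13 CPM (2.86 ± 0.08). GADD45A, a stress sensor that blocks the G2/M kinase CDK1, had 93.2 and 86.1 CPM, against 32.0 and 28.9 CPM (1.57 ± 0.04). SFN, the 14-3-3 sigma protein that keeps cyclin B1 in the cytoplasm, had 409.3 and 348.0 CPM, against 223.0 and 203.2 CPM (0.84 ± 0.03). For each of these genes the groups did not overlap.

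GDF15 was also widespread among CDKN1A-high barcodes. With every barcode thinned to 20000 UMIs, 70.7% of the CDKN1A-high barcodes of library 1 (95% exact binomial interval 64.6 to 76.3%) and 69.7% of those of library 2 (62.3 to 76.4%) held a GDF15 UMI, against 12.5% (10.9 to 14.2%) and 11.5% (9.43 to 13.9%) of CDKN1A-none barcodes. Before thinning these shares were 86.6% and 87.4%, against 25.9% and 24.1%. COL1A1, a collagen gene of fibroblasts, was seen after thinning in 4.88% and 4.57% of CDKN1A-high barcodes, against 5.08% and 7.59% of CDKN1A-none barcodes. The libraries came from 1 cell line, so COL1A1 UMIs may come from the cells themselves and cannot gauge free GDF15 RNA.

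The genes of cell death followed the same direction, with all 12 tested members higher and a median log2 fold change of 0.82. BBC3, which encodes the BH3-only killer PUMA, had 35.2 and 27.2 CPM in CDKN1A-high barcodes, against 5.35 and 4.57 CPM in CDKN1A-none barcodes (2.67 ± 0.08, adjusted p = 2.17e-13). FAS, a death receptor, had 19.1 and 16.8 CPM, against 4.91 and 4.48 CPM (1.95 ± 0.09). PMAIP1, which encodes the BH3-only protein NOXA, rose by 0.93 ± 0.05 and BAX, the pore former of the outer mitochondrial membrane, by 0.70 ± 0.03. These were higher in both libraries. Fits without library 1 or library 2 called 7 and 7 of 13 death genes higher.

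All 4 genes of DNA repair and nucleotide supply rose. DDB2, the damage sensor of nucleotide excision repair, had 70.3 and 67.9 CPM in CDKN1A-high barcodes, against 25.0 and 23.5 CPM in CDKN1A-none barcodes (1.52 ± 0.05). RRM2B, the p53-induced subunit of ribonucleotide reductase, rose by 1.08 ± 0.05, POLH, a translesion polymerase, by 0.99 ± 0.05 and XPC, which starts global excision repair, by 0.57 ± 0.05.

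Of 8 genes of metabolism and antioxidant defence 6 rose. SESN2, a sestrin that restrains mTORC1, had 20.5 and 19.8 CPM in CDKN1A-high barcodes, against 5.50 and 5.83 CPM in CDKN1A-none barcodes (1.85 ± 0.08). FDXR, the mitochondrial ferredoxin reductase, rose by 1.28 ± 0.04, SESN1 by 1.02 ± 0.07 and CMBL, a hydrolase, by 0.68 ± 0.04. The 2 that did not pass were GLS2, at 0.857 and 1.09 CPM against 0.693 and 1.07 CPM, and ALDH4A1, at 2.84 and 3.15 CPM against 2.74 and 2.63 CPM.

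The other p53 targets gave 16 higher and 2 lower of 18 tested. RPS27L, a ribosomal protein paralogue whose reads can be shared with near-identical copies, had 518.8 and 476.8 CPM in CDKN1A-high barcodes, against 198.8 and 180.7 CPM in CDKN1A-none barcodes (1.41 ± 0.03). DRAM1, an autophagy regulator of lysosomes, rose by 0.82 ± 0.07, BLOC1S2 by 0.68 ± 0.04 and the helicase gene ASCC3 by 0.40 ± 0.03. The 2 that fell, named after their values were seen, were KITLG, the ligand of the KIT receptor (-0.27 ± 0.03), and FBXW7, a ubiquitin ligase subunit that degrades cyclin E (-0.12 ± 0.04). Without library 1 or library 2 the number higher was 9 and 12 of 19. All 5 tested long noncoding RNAs known as p53 targets rose, among them NEAT1, the scaffold of paraspeckles, at 374.2 and 348.1 CPM against 105.4 and 109.9 CPM (1.77 ± 0.03), and LINC01021 at 5.41 and 5.09 CPM against 0.602 and 0.868 CPM (2.90 ± 0.20).

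**Figure D2:**
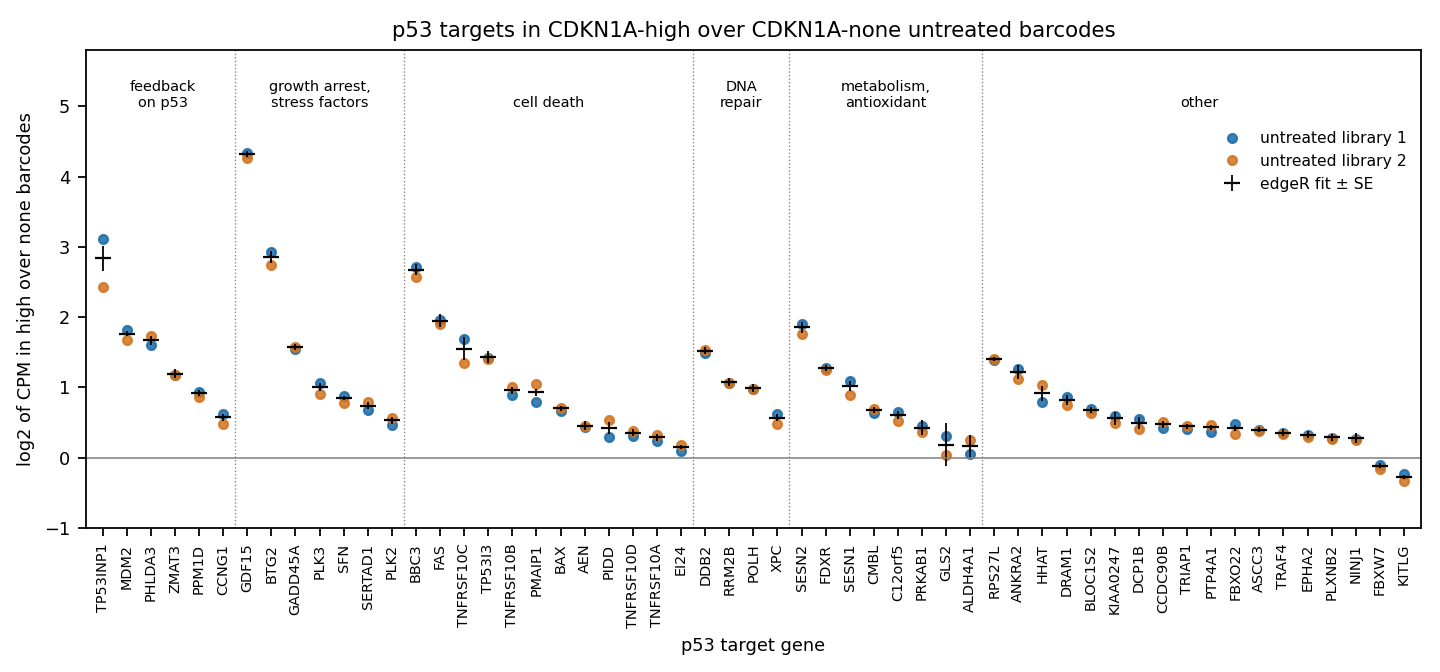
log2 of the CPM in CDKN1A-high over CDKN1A-none barcodes for the 55 p53 targets tested, grouped by role, with 1 point for each untreated library and a black mark for the edgeR fit ± SE. GDF15 stands highest at 4.33, and only FBXW7 and KITLG lie below 0 in both libraries.

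The p53 targets were also searched for the p53 response element, because the rule used no sequence. The element is a pair of abutting decamers around a CWWG core. A window of 2500 bases to either side of the annotated gene start (GENCODE, hg19) was searched on both strands for full elements with at most 2 mismatches and an intact C and G in each core. Such a match lay near 18 of the 51 p53 targets that rose (35.3%) and near 516 of 13620 tested protein-coding genes (3.79%). Some of these genes became known as p53 targets through such elements, so the share describes the list. The matches for CDKN1A, for strongly risen genes of the feedback, growth arrest, cell death and repair roles, and for the 2 targets with no mismatch are shown 5′ to 3′ on the strand of the gene, with the core letters in capitals.
CDKN1A: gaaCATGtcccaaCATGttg
GDF15: agaCCTGcccggaCATGtcc
MDM2: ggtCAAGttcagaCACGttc
GADD45A: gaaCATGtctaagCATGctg
BTG2: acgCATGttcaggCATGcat
FAS: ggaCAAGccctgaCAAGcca
DDB2: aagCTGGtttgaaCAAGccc
ZMAT3: aaaCAAGtccagaCATGcct
PLK2: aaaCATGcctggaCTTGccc

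The CDKN1A match (chr6:36644226-36644245, 2 mismatches) spanned the annotated gene start. A gene start here is the outer edge of the annotated gene. The transcript starts used in these cells were not determined, so the distances need not be those to an active promoter. The GDF15 match (chr19:18484757-18484776, 1 mismatch) lay 784 bases upstream of the start of the gene model, and the BTG2 match (chr1:203272770-203272789, 2 mismatches) lay 1849 bases upstream. The MDM2 match (chr12:69202703-69202722, 2 mismatches) lay 746 bases downstream of the start in an intron, the FAS match (chr10:90751066-90751085, 2 mismatches) 652 bases downstream on an exon, the DDB2 match (chr11:47236520-47236539, 1 mismatch) 504 bases downstream on an exon, and the GADD45A match (chr1:68152458-68152477, 1 mismatch) 1574 bases downstream in an intron. The element with no mismatch was found 2008 bases downstream of the start of ZMAT3 in an intron (chr3:178787976-178787995) and 2154 bases upstream of PLK2 (chr5:57758101-57758120). A match describes the letters of the window and not binding in these cells, and a target without one may carry its element farther away or with more mismatches.

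Among CDKN1A-high barcodes, and below the limit that defined them, levels of p53 targets went with the CDKN1A count. GDF15 in library 1 was at 11.9 CPM in barcodes with 0 CDKN1A UMIs, 19.2 with 1, 39.0 with 2 to 3, 63.4 with 4 to 5, 123.7 with 6 to 9 and 336.7 with 10 or more. In library 2 the same classes had 9.27, 14.2, 29.1, 38.5, 77.2 and 246.6 CPM. The order of the classes was the same in both libraries. MDM2 was nearly level between 0 and 1 CDKN1A UMI (42.4 and 44.7 CPM in library 1, 44.9 and 47.5 CPM in library 2) and reached 194.0 and 181.8 CPM at 10 or more. Classes with more CDKN1A UMIs also held deeper barcodes, with medians of 65015 and 71988 UMIs at 0 and 91417 and 93954 UMIs at 10 or more, and the part of depth in these trends was not tested.

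The barcodes next to the limit are given as a description. Just inside it, barcodes with 6 CDKN1A UMIs (48 and 31) had 129.9 and 55.7 CPM of GDF15 and 88.0 and 92.4 CPM of MDM2. Just outside it, barcodes with 5 CDKN1A UMIs (75 and 62) had 61.5 and 49.2 CPM of GDF15 and 80.1 and 72.1 CPM of MDM2. The summed p53 targets without GDF15 were at 3397 and 3313 CPM at 6 CDKN1A UMIs and at 3168 and 3128 CPM at 5. Of these values GDF15 in library 1 differed most between the sides of the limit.

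**Figure D3:**
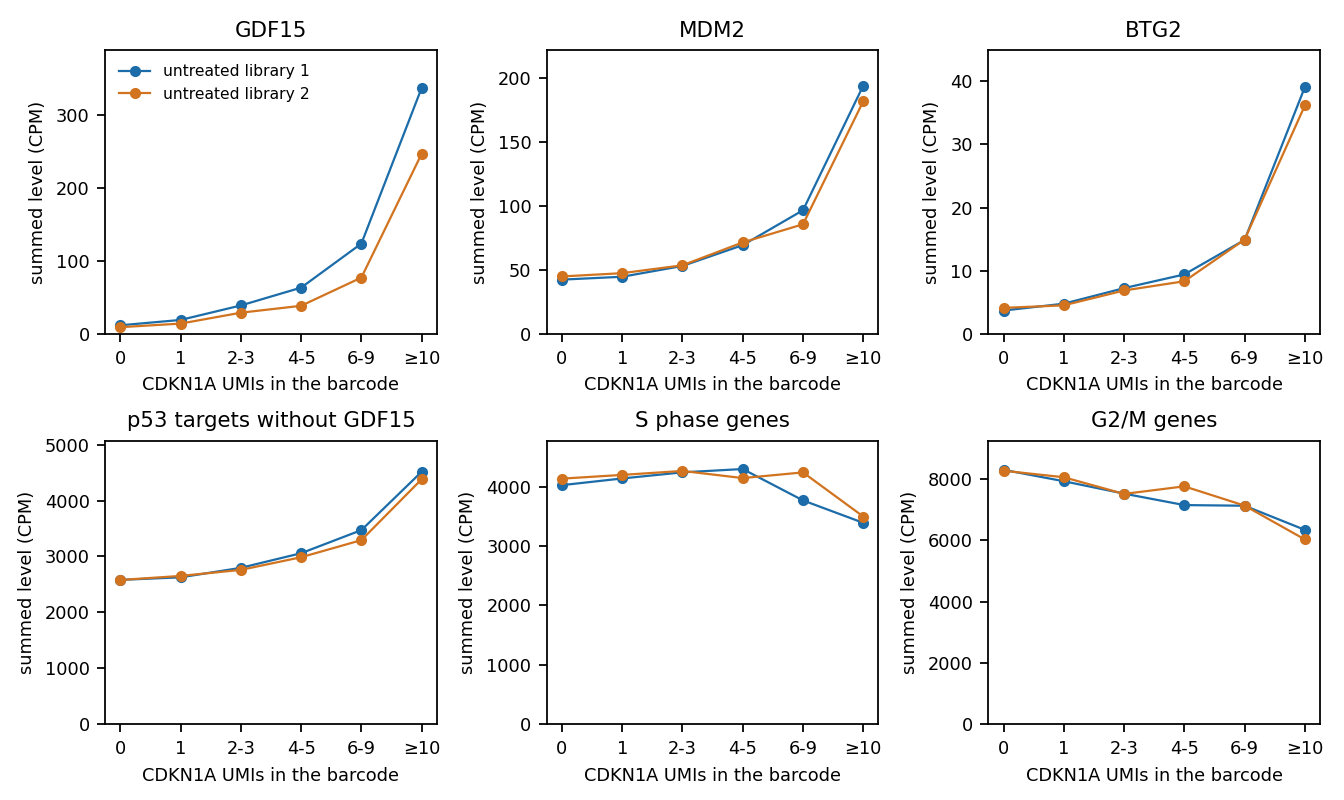
Summed level (CPM) of GDF15, MDM2, BTG2, the p53 targets without GDF15, the S phase genes and the G2/M genes in deep barcodes of the 2 untreated libraries, by CDKN1A UMIs of the barcode. GDF15 reached 336.7 and 246.6 CPM at 10 or more CDKN1A UMIs, while the G2/M genes were at 6339 and 6027 CPM there and at 8297 and 8267 CPM in barcodes with 0.

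Genes of mitosis fell. Of 54 G2/M genes 50 were lower and 0 higher in CDKN1A-high barcodes, with a median log2 fold change of -0.35, and the 4 others did not pass in the edgeR test. CCNB1, the cyclin that drives entry into mitosis, had 200.5 and 170.8 CPM in CDKN1A-high barcodes, against 314.4 and 301.6 CPM in CDKN1A-none barcodes (-0.71 ± 0.03, adjusted p = 2.03e-10). AURKA, the kinase of spindle poles, had 71.2 and 61.4 CPM, against 114.0 and 112.8 CPM (-0.75 ± 0.04). PLK1, a mitotic kinase, fell by 0.66 ± 0.04 on the log2 scale, KIF20A, a kinesin of cytokinesis, by 0.63 ± 0.06, and CDC20, the activator of the anaphase-promoting complex, by 0.58 ± 0.03. In depth-matched groups 49 of 54 were lower. Without the block 24 were lower, and without library 1 or library 2 the number was 27 and 29.

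S phase genes shifted less. Of 41 tested, 26 were lower and 2 higher, with a median of -0.16, where 13.0% of all genes tested were lower and 13.3% higher. SLBP, which processes histone mRNA, had 157.2 and 156.2 CPM in CDKN1A-high barcodes, against 195.8 and 194.9 CPM in CDKN1A-none barcodes (-0.30 ± 0.03). TIPIN, a protector of replication forks, fell by 0.39 ± 0.04 and GMNN, the inhibitor of origin licensing, by 0.35 ± 0.04. The 2 that rose were PCNA, the replication clamp and itself a p53 target, at 238.8 and 236.4 CPM against 214.9 and 204.5 CPM (0.20 ± 0.03), and CCNE2, a G1/S cyclin (0.25 ± 0.07). The count of lower S phase genes was 4 without the block, 12 with DESeq2, and 2 and 5 without library 1 or library 2.

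CDKN1A-high barcodes differed among themselves in cycle genes. Barcodes below the median of their library in both the S phase and the G2/M list, called low-cycle here, were 33.7% (27.9 to 40.0%) and 32.0% (25.2 to 39.5%) of CDKN1A-high barcodes, against 9.61% (8.21 to 11.15%) and 9.37% (7.49 to 11.5%) of CDKN1A-none barcodes. Barcodes with 1 to 5 CDKN1A UMIs lay between, at 12.05% and 11.7%. After thinning, 40.7% and 44.6% of CDKN1A-high barcodes were above the library median for S phase genes and 39.8% and 30.9% for G2/M genes, against 46.4% and 48.4%, and 55.1% and 56.1%, of CDKN1A-none barcodes. MKI67, the proliferation antigen Ki-67, had at least 1 UMI after thinning in 83.3% and 84.6% of CDKN1A-high barcodes, against 95.7% and 97.4% of CDKN1A-none barcodes. Most CDKN1A-high barcodes still held MKI67 UMIs, with free RNA not removed. An exact sign-flip test over 2 libraries cannot go below p = 0.5, so these shares are given with intervals and no test.

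Within low-cycle barcodes (83 and 56 CDKN1A-high, 155 and 79 CDKN1A-none) the p53 targets were higher too. Of 54 tested, 44 were higher and 0 lower, with a median log2 fold change of 1.05, where 8.69% of 12979 genes were higher and 9.22% lower. MDM2 had 199.5 and 204.3 CPM in low-cycle CDKN1A-high barcodes, against 32.6 and 32.9 CPM in low-cycle CDKN1A-none barcodes (2.58 ± 0.12). GADD45A had 141.9 and 157.4 CPM, against 36.9 and 29.2 CPM (2.12 ± 0.12). BTG2 was at 38.5 and 40.2 CPM, against 2.43 and 3.76 CPM (3.68 ± 0.21). The groups were still unequal in cycle genes there, with S phase sums of 2223 and 2140 CPM against 3588 and 3680 CPM and G2/M sums of 4217 and 3980 CPM against 6197 and 6013 CPM. After depth matching within low-cycle barcodes, a setting chosen after seeing the data, 42 of 54 p53 targets were higher and 0 lower.

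The p53 targets were also higher in the other barcodes. With low-cycle barcodes left out, likewise chosen after seeing the data, 50 of 55 were higher and 2 lower (median 0.56), where 8.99% of 16730 genes were higher and 7.49% lower. There the S phase list gave 14 of 41 higher and 3 lower (median 0.06), and of the G2/M list 4 were higher and 27 lower (median -0.11). Since low-cycle barcodes were defined by these same S phase and G2/M lists, the shift of both lists was built into leaving them out and is no test of them.

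Stress programmes besides the p53 list rose too. Of 16 immediate early genes 11 were higher and 1, MYC, lower (median 0.54). For all genes tested the shares higher and lower were 13.3% and 13.0%. JUN, a subunit of the AP-1 transcription factor, had 21.9 and 30.3 CPM in CDKN1A-high barcodes, against 7.84 and 7.84 CPM in CDKN1A-none barcodes (1.72 ± 0.09). ATF3, a stress-induced repressor, rose by 1.34 ± 0.07 and JUND by 0.81 ± 0.03. Of 14 tested genes of the integrated stress response 11 were higher and 0 lower (median 0.40). DDIT4, the mTORC1 inhibitor REDD1, had 48.1 and 42.6 CPM, against 15.8 and 13.7 CPM (1.63 ± 0.06), and PPP1R15A, which dephosphorylates eIF2-alpha, rose by 0.80 ± 0.06. DDIT3, the transcription factor CHOP, had 29.3 and 16.2 CPM, against 10.1 and 10.5 CPM (1.19 ± 0.13). Its level thus differed between the libraries of the CDKN1A-high group. The log2 ratio of DDIT3 was 1.54 and 0.62 in the 2 libraries, a wider spread than the SE of the fit shows. With low-cycle barcodes left out 5 of the 14 were higher and 1 lower. Without library 1, 3 of 14 were higher, and without library 2, 7 of 15, while 10 of the 16 immediate early genes were higher in either case.

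Members of the secretory programme of senescent cells (the SASP) were mostly low. Of 27 found, 16 passed the filter, and of these 10 were higher and 0 lower (median 0.35). Over all genes tested 13.3% were higher and 13.0% lower. PLAU, the urokinase, rose by 0.80 ± 0.07 and its receptor PLAUR by 0.59 ± 0.05. IL8, the member with the largest fold change, had 0.857 and 0.242 CPM in CDKN1A-high barcodes, against 0.146 and 0.152 CPM in CDKN1A-none barcodes. It is among the 10 but passed the filter only through the CDKN1A-high sums, so its rise is no support for the list. IL6, IL1A and IL1B did not pass the filter. Of 7 nuclear lamina genes 4 were lower and 2 higher (median -0.19). LBR and TMPO, among the lower ones, are also on the G2/M list and were counted there. LMNB1, the lamin B1 gene that falls in senescence, had 74.3 and 81.9 CPM in CDKN1A-high barcodes, against 99.4 and 105.2 CPM in CDKN1A-none barcodes (-0.38 ± 0.04), LBR, the lamin B receptor, fell by 0.36 ± 0.04 and TMPO by 0.29 ± 0.03. Without library 1 or library 2, 6 of 18 and 7 of 19 SASP genes were higher, and 1 and 2 lamina genes were lower.

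Other inhibitors of cyclin-dependent kinases moved little. Of 7, 3 were higher and 1 lower (median 0.12), where 13.3% of all genes tested were higher and 13.0% lower. CDKN1C, which encodes p57, had 10.8 and 10.8 CPM in CDKN1A-high barcodes, against 7.70 and 6.81 CPM in CDKN1A-none barcodes (0.58 ± 0.10), and CDKN2B, which encodes p15, rose by 0.58 ± 0.14. CDKN3, a mitotic phosphatase, fell by 0.41 ± 0.04. Of 13 E2F and RB family genes 6 were lower and 2 higher (median -0.17), with TFDP1 at -0.18 ± 0.03 and E2F3 at -0.22 ± 0.04. CCND1, the cyclin D1 gene, had 782.8 and 800.5 CPM, against 859.5 and 863.4 CPM (-0.11 ± 0.02), but in low-cycle barcodes it was higher by 0.30 ± 0.10. With either library left out the rises of CDK inhibitors and the falls of E2F and RB genes were not called. Those fits called far fewer genes of any kind.

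Interferon genes of the set linked to unphosphorylated ISGF3 (U-ISGF3), a transcription factor complex that the study follows after DOX, moved in part. Of 29 found, 19 passed the filter, and 5 of these were higher and 0 lower (median 0.35). Among all genes tested 13.3% were higher and 13.0% lower. ISG15, a ubiquitin-like modifier, had 155.5 and 137.7 CPM in CDKN1A-high barcodes, against 123.7 and 119.2 CPM in CDKN1A-none barcodes (0.29 ± 0.03). DDX58, the RNA sensor RIG-I, rose by 0.49 ± 0.09 and BST2, an antiviral tether, by 1.13 ± 0.28, with 2.07 and 1.15 CPM against 0.785 and 0.716 CPM. STAT3, a cytokine-activated transcription factor, rose by 0.47 ± 0.06 and STAT2 by 0.30 ± 0.10. Of 27 genes of the set that could be tested with a library left out, 1 was higher without library 1 and 5 without library 2.

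Of the metabolic and tissue lists, hypoxia genes gave 9 higher and 2 lower of 17 (median 0.21), led by NDRG1 at 33.1 and 34.0 CPM in CDKN1A-high barcodes against 13.7 and 13.3 CPM in CDKN1A-none barcodes (1.32 ± 0.06) and by BNIP3L, a mitophagy receptor (0.86 ± 0.06). NRF2 targets gave 10 higher and 0 lower of 14, with small changes (median 0.12), among them the ferritin genes FTH1 (0.37 ± 0.02) and FTL (0.21 ± 0.02). Cholesterol synthesis genes gave 6 higher and 0 lower of 18 (median 0.14). Beside these lists, 13.3% of all genes tested were higher and 13.0% lower. Of 8 epithelial genes 5 were higher and 1 lower. The lower gene, EPCAM, had 347.5 and 300.2 CPM in CDKN1A-high barcodes, against 387.4 and 332.6 CPM in CDKN1A-none barcodes (-0.14 ± 0.03). KRT19, a keratin of simple epithelia, had 1314 and 1289 CPM, against 1000 and 948.5 CPM (0.43 ± 0.02), and the tight junction gene CLDN4 rose by 0.49 ± 0.04. Without library 1 or library 2 the genes higher were 3 and 5 for hypoxia, 2 and 5 for NRF2, 0 and 2 for cholesterol synthesis, and 2 and 5 for epithelial genes.

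**Figure D4:**
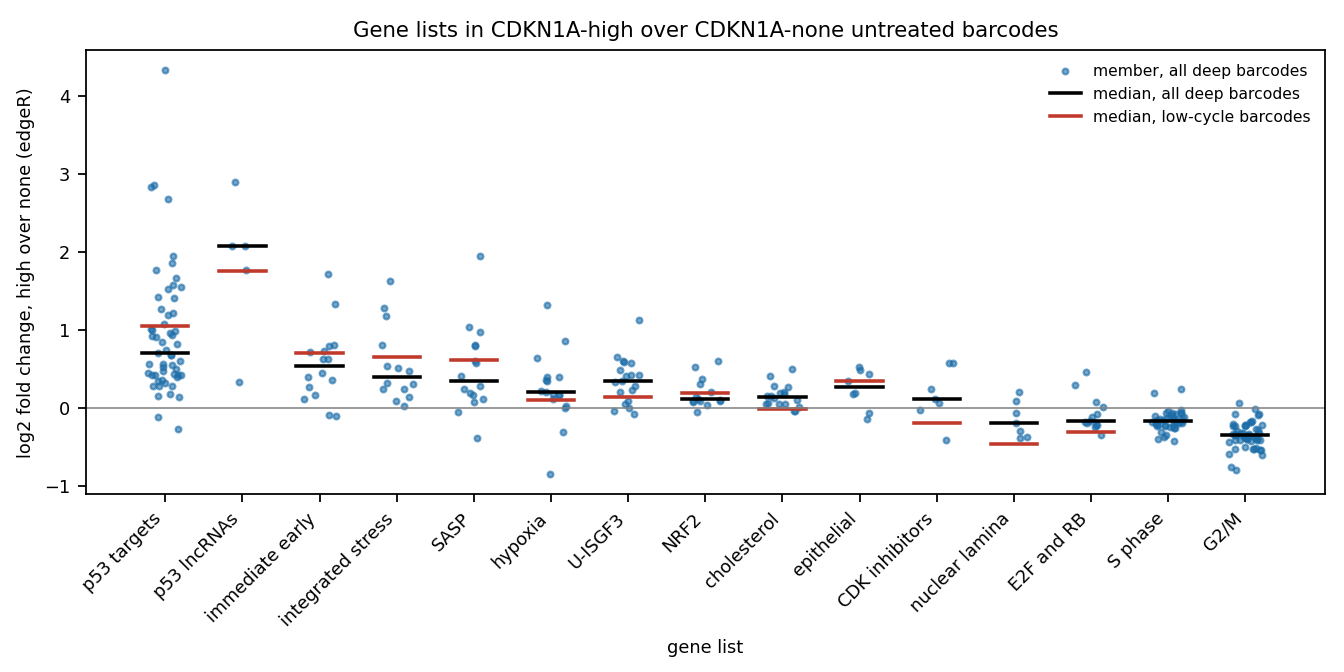
log2 fold change (edgeR) in CDKN1A-high over CDKN1A-none untreated barcodes for the members of 15 gene lists, with a black bar for the median of a list and a red bar for its median within low-cycle barcodes (not drawn for the S phase and G2/M lists, which defined low-cycle). The p53 targets had medians of 0.70 and 1.05, and the G2/M genes a median of -0.35.

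The same contrast was then made in the DOX libraries, to ask where untreated CDKN1A-high cells differ from treated ones. There 3089 of 17831 genes (17.3%) were higher and 4448 (24.9%) lower in CDKN1A-high than in CDKN1A-none barcodes. The test of the difference itself, an interaction over 8 sums with untreated minus DOX, gave 2392 genes (13.4%) above 0 and 837 (4.69%) below 0, with a median difference of 0.07. Without TMM scaling these were 1472 and 1205. On simulated data the interaction fit made more false calls than its threshold allows, which the contrast within untreated libraries hardly did, so a single interaction call is less secure. The contrasts were not of equal strength, since CDKN1A-high barcodes of DOX libraries held more CDKN1A, and of their CDKN1A-none barcodes only 128 and 122 remained.

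Most p53 targets changed to a degree that the interaction test did not separate. Of 57 tested, 2 were above 0 and 13 below 0, where 13.4% of all genes tested were above 0 and 4.69% below 0. The 13 rose less in untreated cells, a larger share than the share below 0 over all genes. MDM2 had log2 fold changes of 1.77 in untreated and 1.75 in DOX libraries, a difference of 0.01 ± 0.11 (adjusted p = 0.964). GDF15 rose further in untreated cells, 4.32 against 3.39 in DOX libraries in the fit over all libraries (0.93 ± 0.10), although its level in CDKN1A-high barcodes was lower in untreated cells, at 240.5 and 177.9 CPM against 514.7 and 452.2 CPM with DOX. ZMAT3 rose by 1.19 in untreated cells and 2.25 in DOX libraries (-1.06 ± 0.15), and SFN by 0.84 and 1.65 (-0.82 ± 0.06).

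The cell cycle lists differed. In the DOX libraries all 54 G2/M and all 41 S phase genes were lower in CDKN1A-high barcodes (medians -1.10 and -0.93), and the difference was above 0 for 52 of 54 and 40 of 41, so these genes fell less in untreated CDKN1A-high cells. LMNB1 changed by -0.38 in untreated cells and -1.27 in DOX libraries (0.89 ± 0.09). PCNA went in opposite directions, at 0.19 in untreated cells and -0.49 in DOX libraries (0.68 ± 0.06). Cholesterol synthesis genes differed likewise, with 16 of 18 lower in DOX libraries and 15 of 18 differences above 0. FTH1 (0.37 against 1.76), KRT18 (0.20 against 1.03) and CPA4, a carboxypeptidase (0.20 against 2.69), rose less in untreated CDKN1A-high cells than in those of the DOX libraries.

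**Figure D5:**
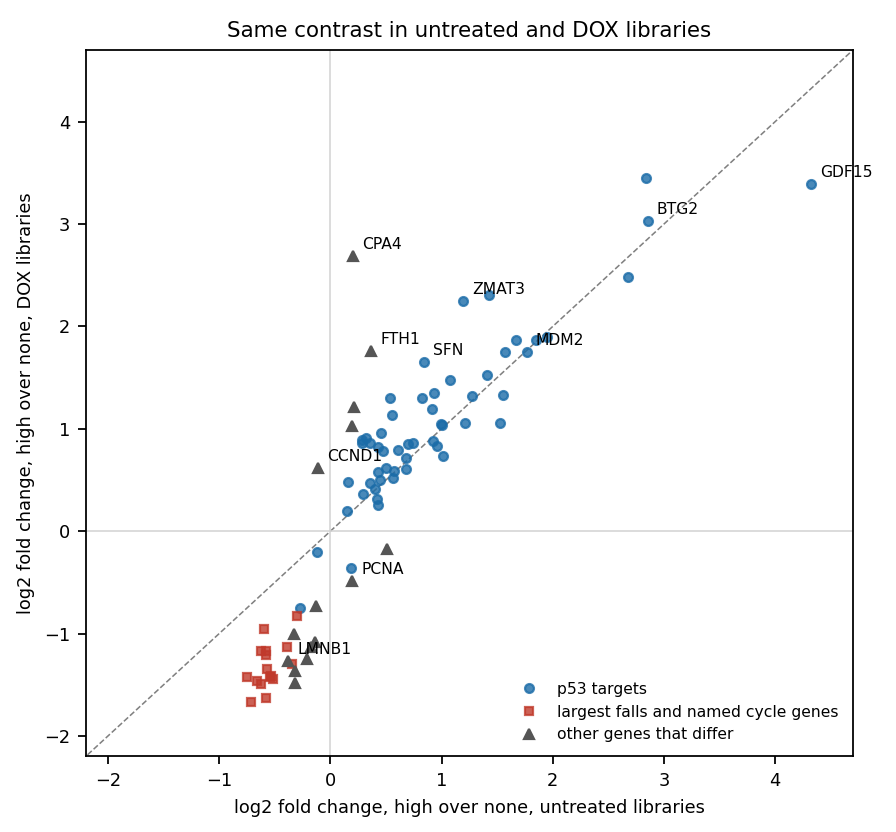
log2 fold change (edgeR) in CDKN1A-high over CDKN1A-none barcodes in the untreated libraries (x axis) and in the DOX libraries (y axis) for p53 targets, for genes with the largest falls and named cycle genes, and for other named genes whose contrast differed; the dashed line marks equal changes. MDM2 lies near the line at 1.77 and 1.75, GDF15 below it at 4.33 and 3.39, and the cycle genes lie below the line, with smaller falls in untreated cells.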

How the data were processed

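The authors aligned the scRNA-Seq reads to hg19 with Cell Ranger and deposited raw UMI counts per gene and barcode, not normalized. The matrix headers and the methods give version 7.2.0, the submitters' notes 7.0.0, and the DOX libraries were forced to 8000 barcodes. Here deep barcodes (20000 to under 150000 UMIs, fewer than 12000 of 32738 genes, under 8% mitochondrial) were split by CDKN1A UMIs (at least 6, or 0), and UMIs were summed per library and group. No doublet caller was used beyond these limits, so that a droplet with more than 1 cell can remain among the deepest barcodes, and free RNA was not removed. CPM is UMIs of a gene for every 1000000 UMIs of a sum. The bulk libraries were not used.

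Sums were tested with edgeR 4.0.16 (TMM, filterByExpr, quasi-likelihood) in R 4.3.3 with the library as block, since high and none barcodes of 1 library share its preparation. The interaction fit had 8 sums and a term per library. DESeq2 1.42.0 was an alternative, with others of scaling, filter, depth, limits of the groups, mitochondrial share, low-cycle barcodes and left-out libraries. Scripts were tested on simulated data, where false calls exceeded the threshold in the interaction fit. Thinning drew 20000 UMIs per barcode without replacement.

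The members, gene lists and tests were chosen with earlier results of these data known. Genes named were, without CDKN1A, the 12 largest rises and falls with a mean of at least 20 CPM, adjusted p under 0.05 and 1 sign in both libraries; the 4 p53 targets per role and the 3 members of every other list with the smallest adjusted p; 11 genes the study follows; the 5 smallest adjusted p of the interaction in each direction; and the 10 largest rises in low-cycle barcodes. TP53INP1, KITLG, FBXW7, GLS2, ALDH4A1, PLK2, SPATA18, TRIM22, MYC, IL8 and EPCAM fell outside this rule and were named after their values were seen. Gene symbols are those of the files, and p53 elements were read from GRCh37 (hg19) with GENCODE lifted annotation. Some genes that this rule names are not reported here.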

Additional observations from a re-analysis of the deposited data

Results flagged for a closer look

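The contrast of CDKN1A-high over CDKN1A-none barcodes differed between untreated and DOX libraries for 21 genes, by edgeR's interaction test with adjusted p under 0.05, among the p53 targets picked by the rule for named genes, the genes the study follows and the genes with the smallest interaction p. Those picked for the smallest interaction p passed by the way they were picked, so the count of 21 is no result. Over all genes tested 13.4% were above 0 and 4.69% below 0. Values are log2 differences, untreated minus DOX. The sums of the DOX libraries came from other numbers of barcodes and held more CDKN1A, and the part of this in the differences was not tested.

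Among p53 targets the change was larger in untreated cells for GDF15 (0.93) and smaller for ZMAT3 (-1.06), SFN (-0.82), DRAM1 (-0.49) and PMAIP1 (-0.42). PLK2 (-0.77) and KITLG (0.47), p53 targets named outside that rule, also passed the test, and KITLG fell less in untreated cells. Among genes of proliferation, chromatin and the nuclear envelope the difference was above 0 for MAD2L1 (1.17), BIRC5 (1.04), CDC20 (1.04), PTTG1 (1.04), HMGB1 (0.95), H2AFZ (0.95), LMNB1 (0.89), PCNA (0.68) and MKI67 (0.67), and likewise for the chaperone HSP90AB1 (0.60). CCND1 (-0.73) fell in untreated and rose in DOX libraries. The ferritin gene FTH1 (-1.39), the keratin KRT18 (-0.83), the retinal dehydrogenase ALDH1A3 (-1.001) and CPA4 (-2.49) rose less in untreated cells. HSH2D, an adaptor that the study follows, differed by 0.69: it had 9.02 and 12.95 CPM in CDKN1A-high barcodes against 6.92 and 8.45 CPM in CDKN1A-none barcodes of the untreated libraries, and 30.9 and 29.3 CPM against 32.2 and 32.1 CPM in the DOX libraries.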

How the results depend on the processing

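The count of p53 targets that were higher (51) stayed between 36 and 52 under every alternative run, the lowest where a mean of at least 20 CPM left 38 of them to test. The counts over all genes did not hold. Without the block that pairs high and none sums by library, 642 genes were higher and 157 lower, and the lower G2/M and S phase genes were 24 and 4. Leaving out 1 untreated library gave 384 to 519 higher, 128 to 169 lower, 27 to 29 lower G2/M and 2 to 5 lower S phase genes. Genes higher and lower were 620 and 828 with DESeq2, 1249 and 944 with a mitochondrial share under 5%, 1189 and 1115 against barcodes with 1 to 5 CDKN1A UMIs, 1278 and 1079 in the fit over all 4 libraries, 1300 and 1189 with every barcode thinned, and 1128 and 1197 in low-cycle barcodes, where fewer genes and barcodes were tested. Only the lower count moved with barcodes of 40000 to under 80000 UMIs (1384), with a mean of at least 20 CPM (1442) and with no filter (3404). With settings chosen after seeing the data they were 1504 and 1253 without low-cycle barcodes, and 647 and 700 in low-cycle and depth-matched barcodes. Lower S phase genes were 12 with DESeq2, 15 with a mitochondrial share under 5%, 15 in the fit over all libraries, 16 with thinning and 16 with groups from thinned CDKN1A. The interaction counts above and below 0 were 1079 and 447 with DESeq2 and 1034 and 407 with depth matching. The count above 0 was 1472 without TMM. Leaving out 1 library gave 915 to 2122 above 0 and 517 to 1470 below 0, the lowest count above 0 without untreated library 1 and the highest below 0 without DOX library 2. The cause of these shifts was not tested.

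Of 2206 values of 114 named genes under the alternatives, 1909 kept direction and side of the threshold, 281 kept direction only and 16 turned. In low-cycle barcodes these were CCND1 (0.30, edgeR adjusted p = 0.0224, so called in the other direction), DKK1 (-0.0554), ID1 (-0.0800), INSIG1 (-0.00433), MT-CO2 (-0.0485) and MT-ND4 (-0.0786), and with depth matching there CA2 (-0.49, against 0.54), CCND1 (0.17), DKK1 (-0.23), MT-CO2 (-0.00438) and MT-ND4 (-0.00687). Between 40000 and 80000 UMIs they were CA2 (-0.000698) and ID2 (-0.0933), against 1 to 5 CDKN1A UMIs CCNE2 (-0.0720), and without low-cycle barcodes H2AFZ (0.0482) and STC2 (-0.00155). Genes under about 1 CPM rest on few UMIs, and a barcode with 0 CDKN1A UMIs may still express the gene.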

Other observations

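Single genes that are not on the lists of stress and cycle genes used here also stood out. RGS6, a regulator of G protein signalling, had 40.0 and 46.2 CPM in CDKN1A-high barcodes, against 16.5 and 19.0 CPM in CDKN1A-none barcodes (log2 fold change 1.30 ± 0.06). KRTAP2-3, a keratin-associated protein gene with near-identical family members, had 23.1 and 26.2 CPM, against 9.50 and 9.01 CPM (1.42 ± 0.08), and in low-cycle barcodes 35.1 and 40.2 CPM, against 7.30 and 10.2 CPM. MALAT1, a nuclear RNA that is also a gauge of nuclear content, had 6461 and 5992 CPM, against 4706 and 4934 CPM (0.39 ± 0.03), while KCNQ1OT1, another nuclear RNA, was at 16.6 and 18.3 CPM, against 16.8 and 18.3 CPM.

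Signalling lists moved little. Of 12 tested Wnt target genes 5 were higher and 0 lower (median 0.12), with SOX9 at 0.31 ± 0.04 and CD44 at 0.17 ± 0.03. TGF-beta and BMP targets gave 5 higher and 0 lower of 9 (median 0.20). NF-kB genes gave 3 higher and 0 lower of 14 (median 0.12), with RELB at 0.31 ± 0.08, and JAK/STAT genes 2 higher and 0 lower of 11 (median 0.15). Over all genes tested 13.3% were higher and 13.0% lower, and the shares of NF-kB and JAK/STAT genes that were higher lay near this background. Colon differentiation genes were mostly unmeasured, since 9 of 22 passed the filter, and 3 of the 9 were higher, with CEACAM1 at 1.22 and 1.39 CPM in CDKN1A-high barcodes against 0.328 and 0.365 CPM in CDKN1A-none barcodes. Without library 1 or library 2 the genes higher were 1 and 0 for Wnt, 1 and 1 for TGF-beta and BMP, 1 and 0 for NF-kB, 0 and 1 for JAK/STAT, and 1 and 1 for colon differentiation. The 13 mitochondrially encoded genes gave 4 higher and 4 lower (median -0.000879). Among 12 p53 family members and regulators 2 were higher and 4 lower, with the p53 inhibitor PPP1R13L at 0.32 ± 0.06 and the MDM2 deubiquitinase USP7 at -0.23 ± 0.04. With either library left out no gene of the p53 family list was called, and 2 and 1 mitochondrially encoded genes were higher and 0 lower. ANAPC1, a subunit of the anaphase-promoting complex, was at 49.1 and 51.0 CPM against 52.6 and 57.2 CPM (-0.11 ± 0.04, adjusted p = 0.0739), and IRF9 was under 1 CPM in every untreated group.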
